A study of Mus musculus with 6 samples.

Results

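The genes described here are 33 members of ceramide and sphingolipid metabolism, found by their symbols among the 29957 genes of a deposited RNA sequencing table. The cells were mouse bone marrow-derived macrophages (macrophages grown in culture from marrow) of wild-type genotype. One group of 3 libraries received LPS+PA-BSA, that is lipopolysaccharide first and then a free fatty acid preparation in place of the usual further trigger of the Nlrp3 inflammasome, and the other 3 libraries were labelled as controls. The labels give no dose, time or age, and do not state whether the controls received LPS or the BSA carrier, so the effects of LPS and of the fatty acid cannot be told apart. Whether the 3 libraries of a group stem from different animals or dishes is not stated, so p-values measure the spread between these libraries, which may be technical.

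Ceramide is the hub of sphingolipid metabolism. It is built de novo in the endoplasmic reticulum from serine and a saturated fatty acyl-CoA, by preference palmitoyl-CoA, through serine palmitoyltransferase, a ketoreductase, a ceramide synthase and a desaturase. It is then used for sphingomyelin, glucosylceramide or ceramide 1-phosphate, released again from these lipids, or split to sphingosine, which is phosphorylated to the signalling lipid sphingosine 1-phosphate. In macrophages these lipids set membrane composition, and they have been studied as a link between saturated fat and inflammation.

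Of the 33 members, 30 reached 1 FPKM (a fragment count scaled by transcript length and by library total) in at least 3 of the 6 libraries and were tested with limma on log2(FPKM + 1) within a fit over all genes that did so. After LPS+PA-BSA 5 of the 30 members were higher and 12 were lower at a Benjamini-Hochberg adjusted p under 0.05, or 16.7% and 40.0%, against 22.2% and 32.9% of all 11364 genes tested. The groups did not overlap in 21 of the 30 members (70.0%), against 63.2% of all genes tested. The median log2 fold change was -0.21 over the tested members and -0.11 over all genes tested. After quantile normalization the median of all genes was 0.01, a value largely fixed by that step, which gives every library the same distribution. By its counts in this fit the list lay near all genes, and the results below are those of its single steps. By step, 3 of 5 tested genes of ceramide use rose and 1 fell, and 1 of 9 tested genes of synthesis rose and 5 fell. Those 5 include Cers4, which passed the filter through the controls alone. None of 5 tested genes of breakdown rose while 2 fell, and 1 of 6 of ceramide release rose while 2 fell. In ceramide release, Smpdl3b (the rise) passed the filter only with its treated libraries, and Smpd2 (a fall) only with its controls. Of 3 regulators of synthesis 1 fell, as did 1 of 2 receptors, and none of either rose. These counts are small, and Kdsr and Degs1 (synthesis) and Asah1 (breakdown) each lost the call in 8 of 16 alternative analyses. In the main fit 2523 of all genes tested were higher and 3736 lower. After upper-quartile scaling 6 members were higher and 9 lower, against 2634 and 3401 of all genes tested. After quantile normalization 6 members were higher and 11 lower, against 3014 and 2922 of all genes tested. There the higher ones made up 35.3% of the called members and 50.8% of all called genes.

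**Figure D1:**
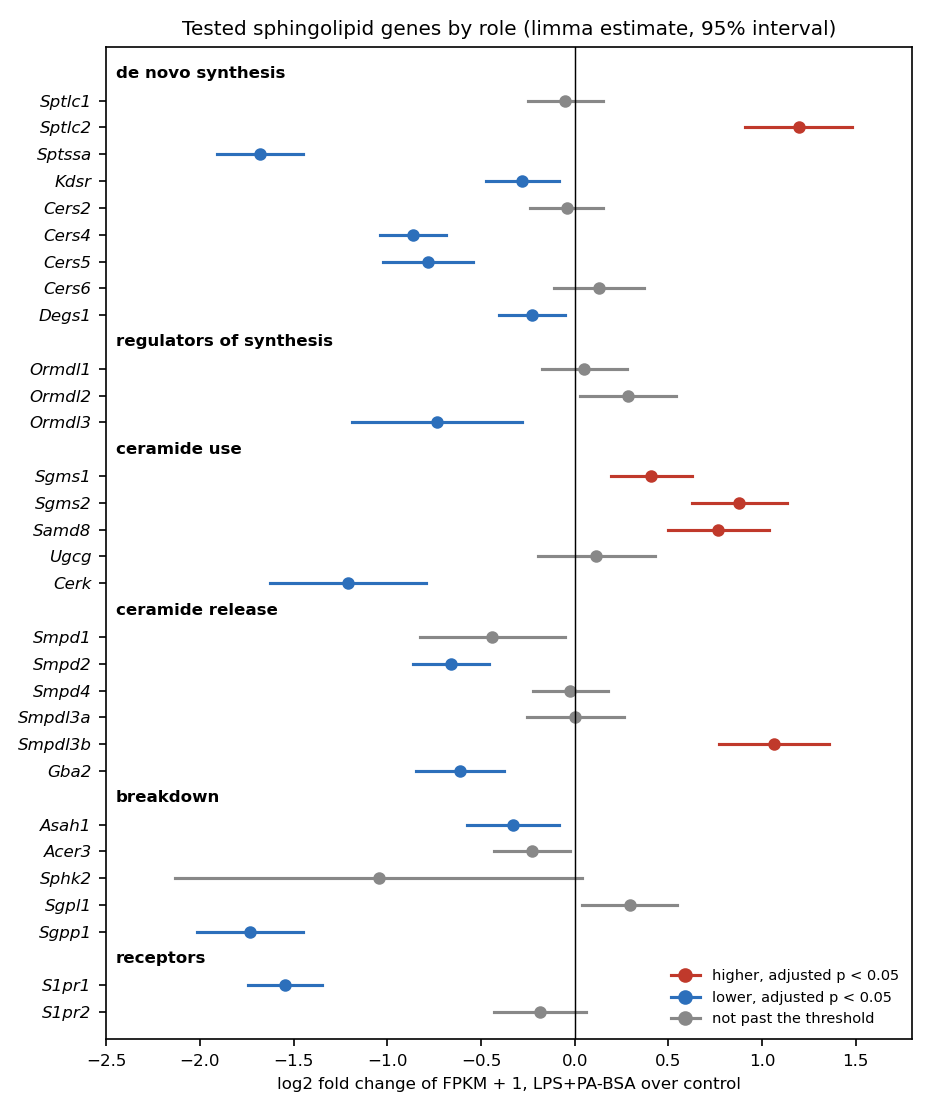
Log2 fold change of FPKM + 1 (x axis, LPS+PA-BSA over control) for the 30 tested members, grouped by role. Points are limma estimates and bars their 95% intervals, with 5 members higher (red), 12 lower (blue) and 13 not past the threshold (grey). Sptlc2 at 1.19 and Sptssa at -1.68 lie at opposite ends within the synthesis group.

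The subunits of serine palmitoyltransferase, the first and rate-limiting enzyme of the path, moved in opposite directions. Sptlc2, which carries the active site, had 35.9, 30.8 and 29.8 FPKM in the LPS+PA-BSA libraries, against 12.2, 12.8 and 15.5 FPKM in the controls. Its lowest treated library was well above its highest control, and the mean rose 2.38-fold (log2 fold change 1.19, SE 0.118, limma adjusted p = 0.000261). Sptssa, the small subunit that raises the activity of the complex, had 13.4, 12.4 and 15.5 FPKM after LPS+PA-BSA, against 47.2, 44.2 and 47.2 FPKM in the controls. The groups were far apart and Sptssa fell by 1.68 on the log2 scale (SE 0.0962, limma adjusted p = 2.74e-05). Sptlc1, the partner that forms the core with Sptlc2, had 13.2, 12.7 and 13.0 FPKM after LPS+PA-BSA, against 13.7, 14.5 and 12.2 FPKM in controls. Its groups overlapped, and its log2 fold change of -0.05 had a 95% interval from -0.25 to 0.15 (limma adjusted p = 0.632).

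Since FPKM is scaled by length, the subunits can be set side by side, though only roughly. FPKM is not scaled for transcript GC content (40.7% for Sptssa, 45.3% for Sptlc2 and 47.7% for Sptlc1), and trends on it differed between libraries. The ratio of Sptlc2 to Sptlc1 FPKM was 2.48 ± 0.216 after LPS+PA-BSA and 1.01 ± 0.220 in controls (SD, n = 3 each). The ratio of Sptssa to Sptlc1 FPKM was 1.07 ± 0.116 after LPS+PA-BSA and 3.45 ± 0.404 in controls. In each control library Sptssa had the highest FPKM of these subunits, whereas in each LPS+PA-BSA library Sptlc2 had. The alternative small subunit Sptssb was under 1 FPKM in 5 of 6 libraries and was not tested. It had 1.07, 0.297 and 0.0642 FPKM after LPS+PA-BSA, and it was listed at 0 in controls 1 and 2 and had 0.0302 FPKM in control 3. The spread between the treated libraries was as wide as their level, and LPS+PA-BSA 1 held most of it. In LPS+PA-BSA 1, where Sptssb was highest, it made up 7.37% of the summed FPKM of the small subunits, whose total stayed below that of every control. The authors' deposited table marks Sptssb as significant with a log2 fold change of 5.56. Of the 33 members, that table marks 4 upward (Sptlc2, Sptssb, Sgms2 and Smpdl3b) and 6 downward (Sptssa, Cers4, Cerk, Smpd2, Sgpp1 and S1pr1), against 4.75% and 9.80% of all its genes. That background is unlike the members, since 11364 of all 29957 genes passed the expression filter used here, against 30 of the 33 members.

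Promoter sequences are shown for Sptlc2 and Smpdl3b, the called members with the largest rises, and for Sptssa and Sgpp1, those with the largest falls, on the log2(FPKM + 1) scale, a choice made after the values were seen. With a pseudocount of 0.1 Cers4 fell most (-2.03, against -1.96 for Sgpp1). Sptlc2, Sptssa and Sgpp1 lie on the same chromosome but far apart, and no link between them by position was tested. The sequences are the 250 bases before the annotated start, 5′ to 3′ on the minus strand, from RefSeq on GRCm38.p6 (mm10), at chr12:87388356-87388605 for Sptlc2, chr4:132757172-132757421 for Smpdl3b, chr12:54656573-54656822 for Sptssa and chr12:75735730-75735979 for Sgpp1. Capitals mark the only match found.
Sptlc2: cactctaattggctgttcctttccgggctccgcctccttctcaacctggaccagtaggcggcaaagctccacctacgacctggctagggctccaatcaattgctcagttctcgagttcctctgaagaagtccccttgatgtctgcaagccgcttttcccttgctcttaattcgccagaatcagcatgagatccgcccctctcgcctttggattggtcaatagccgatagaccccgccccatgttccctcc
Smpdl3b: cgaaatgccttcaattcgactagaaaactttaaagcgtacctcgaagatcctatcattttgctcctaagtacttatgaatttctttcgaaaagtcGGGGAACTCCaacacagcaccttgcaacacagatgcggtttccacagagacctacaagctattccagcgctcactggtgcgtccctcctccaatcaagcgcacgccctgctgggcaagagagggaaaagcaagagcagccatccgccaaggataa
Sptssa: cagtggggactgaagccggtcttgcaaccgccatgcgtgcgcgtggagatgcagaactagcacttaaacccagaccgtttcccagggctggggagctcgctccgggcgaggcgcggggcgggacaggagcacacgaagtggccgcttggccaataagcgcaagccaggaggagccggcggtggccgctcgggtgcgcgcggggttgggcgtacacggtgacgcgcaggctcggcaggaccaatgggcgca
Sgpp1: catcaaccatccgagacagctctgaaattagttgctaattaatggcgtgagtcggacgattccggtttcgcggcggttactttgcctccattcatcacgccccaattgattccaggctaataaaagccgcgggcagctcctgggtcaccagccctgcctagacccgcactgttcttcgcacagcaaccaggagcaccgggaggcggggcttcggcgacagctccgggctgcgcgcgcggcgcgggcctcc
Motifs were chosen with the values known and searched on both strands: the kappaB motif of NF-kB, and the core of the interferon-stimulated response element. The capitals in Smpdl3b are a kappaB match. Of 32851 promoters in the table, 3.90% hold a kappaB match and 2.98% the interferon core. Of the 46 promoters of 30 members there, 3 held the kappaB motif (in Acer2, Degs1 and Smpdl3b) and 0 the interferon core. These matches are letters in a window, and binding was not measured.

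Further along the synthesis path the mRNAs fell or did not pass the test. Cers5, a ceramide synthase that favours palmitoyl-CoA, had 6.42, 5.68 and 5.94 FPKM after LPS+PA-BSA, against 10.4, 10.3 and 12.6 FPKM in controls. All treated libraries were lower than all controls (log2 fold change -0.78, SE 0.101, limma adjusted p = 0.000882). Cers4, which favours longer acyl chains, had 0.248, 0.242 and 0.188 FPKM after LPS+PA-BSA, against 1.31, 1.21 and 1.17 FPKM in controls. It reached the test through the controls alone, so its difference of -0.86 (limma adjusted p = 0.000134; -2.03 with a pseudocount of 0.1) was in part given by the filter. Cers6, the other synthase for palmitoyl-CoA, had 12.6, 10.5 and 10.4 FPKM after LPS+PA-BSA, against 9.76, 9.62 and 10.9 FPKM in controls, with overlapping groups (limma adjusted p = 0.306, 95% interval of the log2 fold change -0.11 to 0.37).

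Cers2, the synthase of very long acyl chains, was by far the most abundant, at 74.4 ± 4.22 FPKM after LPS+PA-BSA and 76.7 ± 4.35 FPKM in controls (SD, n = 3 each; limma adjusted p = 0.672, 95% interval -0.24 to 0.15). Cers2 made up 80.0% to 82.3% of the summed FPKM of the 4 synthases after LPS+PA-BSA and 74.6% to 79.0% in controls. The share of Cers5 was 6.55% ± 0.162 after LPS+PA-BSA and 11.2% ± 1.51 in controls, and that of Cers6 was 12.2% ± 0.971 after LPS+PA-BSA and 10.2% ± 0.936 in controls (SD, n = 3 each). Of the pair with the same preferred acyl chain, Cers5 was lower in every treated library and Cers6 was not.

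Kdsr, the ketoreductase, had 1.34, 1.29 and 1.38 FPKM after LPS+PA-BSA, against 1.86, 1.66 and 2.00 FPKM in controls. Degs1, the desaturase that turns dihydroceramide into ceramide, had 109, 106 and 117 FPKM after LPS+PA-BSA, against 127, 129 and 133 FPKM in controls. Both were lower in every treated library, by small amounts (log2 fold change -0.28 and -0.23, limma adjusted p = 0.0257 and 0.0371). These calls ended in many alternatives, with adjusted p up to 0.573 for Kdsr (quantile normalization, log2 fold change -0.07) and 0.136 for Degs1 (upper-quartile scaling, -0.17). Leaving out LPS+PA-BSA 1, LPS+PA-BSA 2 or control 1 ended both calls. Without LPS+PA-BSA 3 the call of Kdsr ended, and without control 2 or control 3 that of Degs1. The value of Degs1 was larger after quantile normalization (-0.44, adjusted p = 0.00815) and with the GC and length trend removed (-0.44, adjusted p = 0.00212).

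**Figure D2:**
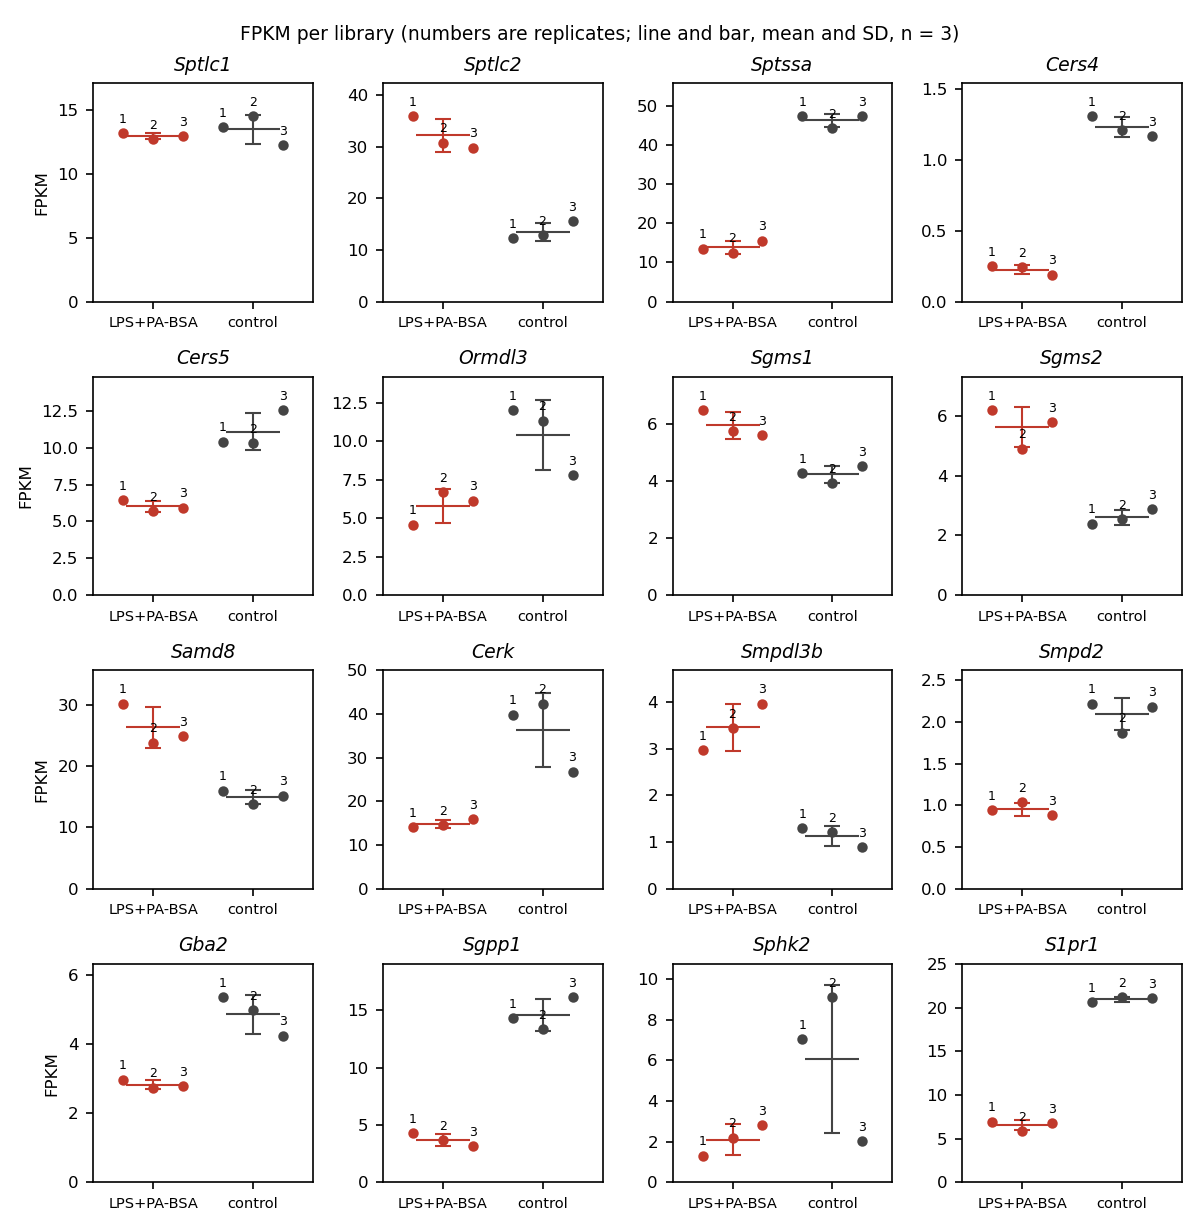
FPKM of 16 members in each library (y axis, from 0), LPS+PA-BSA left in red and control right in dark grey. Numbers are replicates, and the line and bar are mean and SD (n = 3). The groups are separate in 14 panels, and Sptlc1 and Sphk2 overlap. Of the controls, control 3 lies nearest to the treated values for Sptlc2, Cers4, Ormdl3, Sgms1, Sgms2, Cerk, Gba2 and Sphk2.

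Among the ORMDL proteins, which hold serine palmitoyltransferase in check when ceramide is plentiful, Ormdl3 fell. It had 4.58, 6.68 and 6.15 FPKM after LPS+PA-BSA, against 12.0, 11.3 and 7.80 FPKM in controls (log2 fold change -0.74, SE 0.189, limma adjusted p = 0.0163). Control 3 stood between the other controls and the treated libraries. The call ended without control 1 (-0.63, adjusted p = 0.0564) or control 2 (-0.67, adjusted p = 0.0554). Once each library's dependence on GC content and length of the transcript was removed, the value was -0.29, still past the threshold (adjusted p = 0.0122). Ormdl2 averaged 17.3 ± 0.822 FPKM after LPS+PA-BSA and 14.1 ± 1.87 FPKM in controls (SD, n = 3 each). It missed the threshold (log2 fold change 0.28, 95% interval 0.03 to 0.54, limma adjusted p = 0.0587), and passed without control 1 (0.38, adjusted p = 0.0269) and after quantile (0.32) or upper-quartile scaling (0.34), while with the GC and length trend removed it was -0.0113. Exons of Dnajc14 on the opposite strand cover 66.7% of the exonic bases of Ormdl2, and whether counting used strand is not stated, so its reads may be shared. Ormdl1 averaged 5.75 FPKM after LPS+PA-BSA and 5.53 FPKM in controls (limma adjusted p = 0.670, 95% interval -0.18 to 0.28). Of the summed Ormdl FPKM, Ormdl3 made up 20.0% ± 2.93 after LPS+PA-BSA and 34.4% ± 5.46 in controls. Ormdl2 made up 60.0% ± 0.963 after LPS+PA-BSA and 47.0% ± 3.36 in controls, so its possible sharing of reads bears on these shares. The GC and length trend was not removed from them.

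The 3 members of the sphingomyelin synthase family rose together. Sgms2, the plasma membrane synthase, had 6.19, 4.90 and 5.79 FPKM after LPS+PA-BSA, against 2.39, 2.53 and 2.87 FPKM in controls. This was a 2.17-fold rise of the mean with no overlap (log2 fold change 0.88, SE 0.106, limma adjusted p = 0.000662). Sgms1, the Golgi synthase, had 6.48, 5.74 and 5.60 FPKM after LPS+PA-BSA, against 4.26, 3.92 and 4.51 FPKM in controls (log2 fold change 0.41, SE 0.0903, limma adjusted p = 0.00919). Samd8, an enzyme of the endoplasmic reticulum that makes ceramide phosphoethanolamine, had 30.2, 23.8 and 24.9 FPKM after LPS+PA-BSA, against 16.0, 13.8 and 15.2 FPKM in controls. Every treated library was again above every control (log2 fold change 0.77, SE 0.112, limma adjusted p = 0.00154). Summed over the 3 genes, FPKM was 37.9 ± 4.43 after LPS+PA-BSA and 21.8 ± 1.37 in controls (SD, n = 3 each), and Samd8 made up 68.6% to 70.4% of it after LPS+PA-BSA and 67.3% to 70.6% in controls. All 3 kept their calls in all 16 alternatives, though Sgms1 was at 0.28 with the GC and length trend removed.

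The other outlets of ceramide did not rise. Cerk, the kinase that makes ceramide 1-phosphate, had 14.1, 14.6 and 15.9 FPKM after LPS+PA-BSA, against 39.8, 42.4 and 26.8 FPKM in controls (log2 fold change -1.21, SE 0.174, limma adjusted p = 0.00146). Treated libraries were close to each other, while control 3 was lower than the other controls. The log2 fold change of Cerk was -0.63 with the GC and length trend removed, still past the threshold. Ugcg, glucosylceramide synthase, averaged 11.8 ± 1.21 FPKM after LPS+PA-BSA and 10.9 ± 1.79 FPKM in controls (SD, n = 3 each), with overlapping groups (limma adjusted p = 0.481, 95% interval -0.20 to 0.43).

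**Figure D3:**
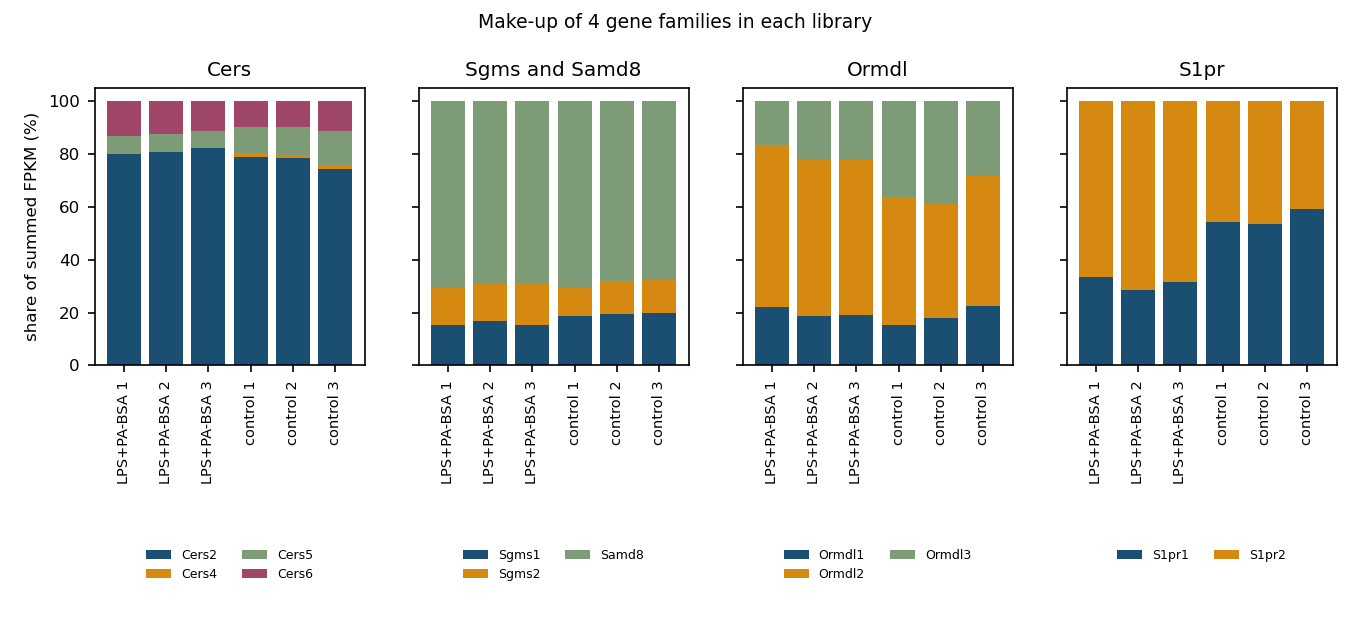
Share of each gene in the summed FPKM of its family (y axis, percent) in each library, LPS+PA-BSA left of control. Reads of Ormdl2 in the Ormdl sum may be shared with Dnajc14. The share of Ormdl3 is 16.6% to 21.8% after LPS+PA-BSA and 28.3% to 38.9% in controls, that of S1pr1 is 28.4% to 33.3% after LPS+PA-BSA and 53.7% to 59.4% in controls, while Samd8 keeps a like share in both groups.

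Among phosphodiesterases and hydrolases that release ceramide or are related to those that do, Smpdl3b stood out. This membrane-bound relative of acid sphingomyelinase, described in mouse macrophages as a brake on Toll-like receptor signalling, had 2.96, 3.44 and 3.96 FPKM after LPS+PA-BSA, against 1.30, 1.21 and 0.887 FPKM in controls. The groups did not overlap, and the mean rose 3.05-fold (log2 fold change 1.06, SE 0.122, limma adjusted p = 0.000531). Control 3 was under 1 FPKM, so Smpdl3b passed the filter only with its treated libraries, and its rise may in part be given by the filter. With the filter at 0.5 FPKM, which all its libraries exceeded, its limma adjusted p was 0.000609. Its secreted relative Smpdl3a, which cleaves nucleotides, was far more abundant, at 256 ± 22.7 FPKM after LPS+PA-BSA and 256 ± 26.4 FPKM in controls (SD, n = 3 each; limma adjusted p = 0.977, 95% interval -0.26 to 0.26). Smpd2, a neutral sphingomyelinase, had 0.943, 1.04 and 0.881 FPKM after LPS+PA-BSA, against 2.22, 1.87 and 2.18 FPKM in controls (log2 fold change -0.66, SE 0.0849, limma adjusted p = 0.000872; -1.05 with a pseudocount of 0.1). Only LPS+PA-BSA 2 of the treated libraries reached 1 FPKM, so Smpd2 passed the filter through its controls and its fall was in part given by the filter. Exons of Mical1 on the opposite strand cover 20.3% of the exonic bases of Smpd2, and Mical1 itself averaged 0.625 FPKM after LPS+PA-BSA and 6.03 FPKM in controls. The part of Mical1 reads in the Smpd2 value was not tested.

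Gba2, a glucosylceramidase, had 2.97, 2.74 and 2.78 FPKM after LPS+PA-BSA, against 5.36, 4.99 and 4.25 FPKM in controls (log2 fold change -0.61, SE 0.0974, limma adjusted p = 0.00229). With the GC and length trend removed, the log2 fold change was -0.01 for Gba2 (adjusted p = 0.940) and -0.17 for Smpd2 (adjusted p = 0.345), and both calls ended. Smpd1, acid sphingomyelinase, had 6.38, 6.43 and 6.36 FPKM after LPS+PA-BSA, against 9.67, 11.1 and 6.81 FPKM in controls. Every treated library was lower, but control 3 only just higher, and the difference missed the threshold (log2 fold change -0.44, 95% interval -0.83 to -0.05, limma adjusted p = 0.0561), passing without control 3 (-0.62, adjusted p = 0.00139), while with the GC and length trend removed it was -0.04 (adjusted p = 0.701). Smpd4, another neutral sphingomyelinase, averaged 4.49 FPKM after LPS+PA-BSA and 4.59 FPKM in controls (limma adjusted p = 0.825, 95% interval -0.22 to 0.18).

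In breakdown, the clearest change was in Sgpp1, the phosphatase that returns sphingosine 1-phosphate to sphingosine. Sgpp1 had 4.27, 3.67 and 3.16 FPKM after LPS+PA-BSA, against 14.3, 13.4 and 16.1 FPKM in controls. Its mean in controls was 3.94 times that after LPS+PA-BSA, with the groups far apart (log2 fold change -1.73, SE 0.118, limma adjusted p = 5.35e-05). Sgpl1, the lyase that cleaves sphingosine 1-phosphate for good, had 221, 188 and 186 FPKM after LPS+PA-BSA, against 155, 151 and 179 FPKM in controls. The treated libraries were all higher, control 3 close below them, and the difference missed the threshold (log2 fold change 0.29, 95% interval 0.04 to 0.55, limma adjusted p = 0.0530). It passed without control 3 (0.37, adjusted p = 0.0205) and with the GC and length trend removed (0.38, adjusted p = 0.00771), and was 0.06 after quantile normalization (adjusted p = 0.717). The ratio of Sgpl1 to Sgpp1 FPKM was 54.0 ± 4.29 after LPS+PA-BSA and 11.1 ± 0.235 in controls (SD, n = 3 each).

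Asah1, acid ceramidase of the lysosome, had 108, 90.5 and 91.7 FPKM after LPS+PA-BSA, against 116, 116 and 133 FPKM in controls (log2 fold change -0.33, SE 0.102, limma adjusted p = 0.0314). Leaving out any single library other than LPS+PA-BSA 1 ended this call (log2 fold change -0.41 to -0.27 over all 6 left out in turn). It was larger after quantile normalization (-0.55, adjusted p = 0.0106) and with the GC and length trend removed (-0.60, adjusted p = 0.000210). Acer3, an alkaline ceramidase, averaged 2.02 ± 0.198 FPKM after LPS+PA-BSA and 2.53 ± 0.102 FPKM in controls (SD, n = 3 each; limma adjusted p = 0.0574, 95% interval -0.43 to -0.03), and passed without LPS+PA-BSA 1 (-0.28, adjusted p = 0.0391) and with the GC and length trend removed (-0.19, adjusted p = 0.0457). After quantile normalization the log2 fold change of Acer3 was -0.002 (adjusted p = 0.989). Acer2, the Golgi ceramidase, was under 0.5 FPKM in every library and was not tested. It had 0.403, 0.263 and 0.276 FPKM after LPS+PA-BSA, against 0.174, 0.203 and 0.145 FPKM in controls.

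Both sphingosine kinases, which make sphingosine 1-phosphate, were lower in control 3 than in the other controls. Sphk2 had 1.31, 2.19 and 2.80 FPKM after LPS+PA-BSA, against 7.03, 9.10 and 2.04 FPKM in controls. Control 3 lay among the treated libraries, and the difference missed the threshold (log2 fold change -1.05, 95% interval -2.13 to 0.04, limma adjusted p = 0.0900), whereas it was -1.57 without control 3 (adjusted p = 0.00136) and -0.31 with the GC and length trend removed (adjusted p = 0.345). Exons of Rpl18 and Dbp on the opposite strand cover 8.97% and 13.0% of the exonic bases of Sphk2. Rpl18 had 6.24, 11.8 and 13.9 FPKM after LPS+PA-BSA, against 32.2, 38.3 and 15.7 FPKM in controls, the same order of libraries within each group as Sphk2, and the part of its reads in the Sphk2 value was not tested. Sphk1 was under 1 FPKM in every library and was not tested, with 0.353, 0.339 and 0.371 FPKM after LPS+PA-BSA against 0.908, 0.787 and 0.247 FPKM in controls. Control 3 was the lowest of the 6 libraries for Sphk1, and the groups overlapped for both kinases.

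Of the receptors for sphingosine 1-phosphate, S1pr1, which couples to migration and egress of leukocytes, fell. It had 6.94, 5.88 and 6.79 FPKM after LPS+PA-BSA, against 20.6, 21.2 and 21.1 FPKM in controls, with both groups tight (log2 fold change -1.55, SE 0.0833, limma adjusted p = 2.14e-05). S1pr2, a receptor that opposes migration, averaged 14.5 ± 0.524 FPKM after LPS+PA-BSA and 16.6 ± 2.02 FPKM in controls (SD, n = 3 each; limma adjusted p = 0.169, 95% interval -0.43 to 0.06), and passed without control 3 (-0.28, adjusted p = 0.0230). S1pr1 had the higher FPKM of the pair in each control and S1pr2 in each LPS+PA-BSA library. In bulk RNA, fewer cells that express a gene and less of its RNA per cell cannot be told apart.

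Control 3 was lower than the mean of controls 1 and 2 by more than 0.2 on the log2(FPKM + 1) scale in 7 of the 30 tested members and higher by more than 0.2 in 7. Across all 30, the difference had a Pearson correlation of -0.72 with transcript GC content (Spearman -0.58; -0.72 and -0.54 without Sphk2), and across 11355 genes -0.58 (Spearman -0.67). These are descriptions over genes that share libraries. Differences were also taken within 2 sets of libraries known from an earlier look at these data, controls 1 and 2 with LPS+PA-BSA 3, and control 3 with LPS+PA-BSA 1 and 2. Within the first and the second set, the log2 differences were -0.83 and -0.43 for Ormdl3, -1.32 and -0.86 for Cerk, and -0.71 and -0.45 for Gba2. For Smpd1 they were -0.63 and -0.08, and for Sphk2 -1.25 and -0.16. For others the set values were 1.19 and 1.05 for Sptlc2, -1.50 and -1.79 for Sptssa, 0.97 and 0.75 for Sgms2, 1.14 and 1.15 for Smpdl3b, -1.83 and -1.79 for Sgpp1, and -1.49 and -1.58 for S1pr1. Each set has a single library on one side, so these values carry no test.

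**Figure D4:**
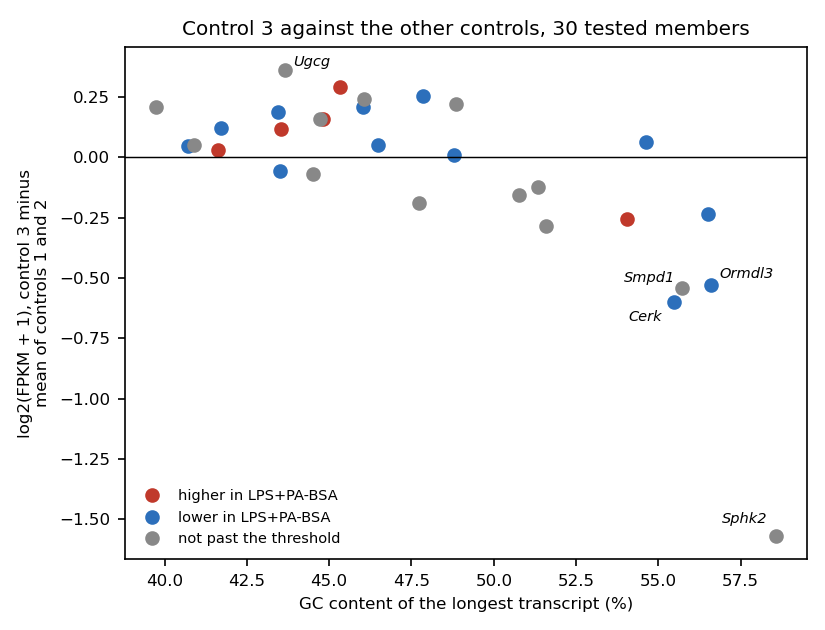
Difference of control 3 from the mean of controls 1 and 2 on the log2(FPKM + 1) scale (y axis) against the GC content of the longest transcript (x axis, percent) for the 30 tested members, coloured by call. Sphk2, Cerk, Smpd1 and Ormdl3, all above 55% GC, lie lowest, and the Pearson correlation is -0.72.

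The neighbouring steps of sphingolipid metabolism were followed with 35 other genes of the pathway, of which 34 were in the table and 22 were tested. Of these 3 rose and 11 fell, or 13.6% and 50.0%, against 22.2% and 32.9% of all genes tested. The falls include the receptor S1pr3, which reached 1 FPKM in the controls alone, so that its fall was in part given by the filter. St3gal5, which makes the ganglioside GM3, averaged 23.9 ± 1.63 FPKM after LPS+PA-BSA and 9.90 ± 1.24 FPKM in controls (SD, n = 3 each; log2 fold change 1.20, limma adjusted p = 0.000176). Gla, the lysosomal alpha-galactosidase, rose as well, at 151 ± 13.3 FPKM after LPS+PA-BSA and 86.8 ± 9.32 FPKM in controls (SD, n = 3 each; log2 fold change 0.79, limma adjusted p = 0.00122).

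The largest falls there were those of Galc, Arsa, B4galnt1, Gm2a and Gltp. Galc, the lysosomal galactosylceramidase, averaged 2.37 ± 0.302 FPKM after LPS+PA-BSA and 8.57 ± 0.465 FPKM in controls (SD, n = 3 each; log2 fold change -1.51, limma adjusted p = 4.01e-05). Gm2a, the activator of ganglioside breakdown, averaged 15.7 FPKM after LPS+PA-BSA and 39.7 FPKM in controls (log2 fold change -1.28), and B4galnt1, a ganglioside synthase, 4.48 FPKM after LPS+PA-BSA and 13.4 FPKM in controls (-1.40). Gltp, a glycolipid transfer protein, averaged 48.7 FPKM after LPS+PA-BSA and 113 FPKM in controls (-1.17), and Arsa, arylsulfatase A, 2.06 FPKM after LPS+PA-BSA and 8.28 FPKM in controls (-1.50). With the GC and length trend removed, B4galnt1 was at -0.71 and Arsa at -0.90. Within the 2 sets of libraries, Arsa was at -1.85 and -0.72 and Gltp at -1.26 and -0.80.

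The 6 libraries held 13.9 to 21.2 M (mega) fragments by an estimate from steps between low FPKM values, at which 1 fragment in a transcript of 1 kb was worth 0.0473 to 0.0720 FPKM. All 8 macrophage markers reached 1 FPKM, with summed levels of 12059 to 14306 FPKM after LPS+PA-BSA and 18878 to 21927 FPKM in controls. Most of that sum was Lyz2 (9112 to 11415 FPKM after LPS+PA-BSA and 15570 to 18768 FPKM in controls). Csf1r, Cd68, Itgam and Mertk were also lower in every LPS+PA-BSA library than in every control. Mertk had 11.7 to 16.0 FPKM after LPS+PA-BSA and 25.2 to 28.5 FPKM in controls, and Csf1r 195 to 218 FPKM and 295 to 311 FPKM. Fcgr1 was higher after LPS+PA-BSA (163 to 189 FPKM, against 34.3 to 42.7 FPKM in controls), and Adgre1 and Cd14 overlapped between the groups. The summed levels of 7 neutrophil markers were 59.4 to 75.3 FPKM after LPS+PA-BSA and 10.6 to 22.3 FPKM in controls. S100a8 held most of that sum after LPS+PA-BSA (57.7 to 67.1 FPKM). No other marker of this list was higher in every LPS+PA-BSA library than in every control. S100a9, Camp, Ltf and Mpo overlapped between the groups, and S100a9 exceeded S100a8 in controls 1 and 2. Ly6g was at 0 after LPS+PA-BSA and at most 0.163 FPKM in controls. Retnlg was also at 0 after LPS+PA-BSA, against 0.194 to 0.595 FPKM in controls. The summed levels of 5 B cell markers were 1.28 to 1.47 FPKM after LPS+PA-BSA and 9.46 to 11.1 FPKM in controls. Most of that was Cd79b (1.00 to 1.20 FPKM after LPS+PA-BSA and 8.53 to 10.3 FPKM in controls), with Ms4a1 at 0 in every control. Ebf1 was also lower in every LPS+PA-BSA library (0.133 to 0.227 FPKM, against 0.765 to 0.922 FPKM in controls), while Pax5 was higher (at most 0.0442 FPKM). The summed levels of 6 stromal markers were 32.7 to 40.5 FPKM after LPS+PA-BSA and 70.4 to 133 FPKM in controls. Within that sum Dcn was higher after LPS+PA-BSA (19.8 to 27.8 FPKM, against 3.72 to 6.33 FPKM in controls), while Col1a1 was lower (3.97 to 6.07 FPKM, against 31.6 to 69.5 FPKM in controls). The other lists (dendritic, erythroid, T and NK cells, basophils and mast cells) stayed under 7 FPKM in every library. The part of such cells in the results for members, S1pr1 among them, was not tested.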

How the data were processed

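RNA sequencing libraries of mouse bone marrow-derived macrophages (3 LPS+PA-BSA, 3 control) were grouped and numbered by the sample titles. Per the labels' protocols, poly(A) RNA was reverse transcribed with dUTP marking of the second strand and sequenced as read pairs. Per the submitters' processing notes, StringTie 2.1.6, HISAT2 2.2.1, cutadapt 1.9, edgeR, DESeq2 and the build mm10 were involved, with no roles given; the annotation and the strand setting of counting are not given in the sources used here. The authors deposited FPKM per gene, 1 column per library, scaled to each library's total, so a few abundant transcripts can shift all others. Per the file headers, the table also holds the authors' fold change (a ratio), q-value, p-value and log2 fold change. The ratio equals that of the mean FPKM, LPS+PA-BSA over control, within 0.1% in all 23889 rows where both means exceed 0. The authors' mark (q under 0.05, absolute log2 fold change of at least 1) falls on 4 of the 33 members upward and 6 downward. Of all 29957 rows it falls on 4.75% and 9.80%, but most of those rows lie under the expression filter used here.

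FPKM are not counts, so no count model was fitted. Tests used limma 3.58.1 in R 4.3.3 with a mean-variance trend on log2(FPKM + 1) over 11364 genes (minimum 1 FPKM in 3 or more libraries), two-sided, adjusted by Benjamini-Hochberg over all of them. Such fold changes understate changes of low genes. The procedure was tested on simulated data. Python 3.11.15 with pandas 2.3.3, numpy 2.4.6 and matplotlib 3.10.9 served for the rest. GC content and length are those of the longest transcript in GENCODE M21 (mm10), where 29871 gene IDs were found. Depth was estimated from single-transcript genes as the value that put most of their low FPKM on steps of a single mate (tolerance 0.5%). Only 13.2% to 16.5% of them lay on such steps, against 1.81% to 1.99% for a typical trial value, so no whole reads were recovered. Of the members, 30 have promoters in the RefSeq table.

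Members, roles and further lists were chosen with earlier results of these data known. All members are accounted for: values of every library are given for those past the threshold and for some of the partners they are set beside, means for the other partners, and of the further genes up to 5 rises and 5 falls past the threshold are named, except for a result that is not reported here. Alternatives covered pseudocounts, filters, the variance trend, scaling, the GC and length trend, a replicate block, the 2 sets of libraries and leaving out each library.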

Additional observations from a re-analysis of the deposited data

How the results depend on the processing

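No called member changed direction in any of the 16 alternatives. Of 17 called members 11 kept their call in all of them and 6 (Kdsr, Degs1, Ormdl3, Smpd2, Gba2 and Asah1) lost it in at least 1. The further pathway genes named kept theirs in all 16. With 1 library left out, the counts ranged from 5 to 6 members higher and 8 to 13 lower, and from 2007 to 2778 genes higher and 2765 to 4273 lower, against 2523 and 3736 with all libraries.

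Members not past the threshold changed sign as follows, in log2 fold change. After upper-quartile scaling Sptlc1 was at 0.000344, Cers2 at 0.0104 and Smpd4 at 0.0214, and after quantile normalization Smpd4 was at 0.16 and Smpdl3a at -0.22. With the GC and length trend removed Ormdl1 was at -0.20 (limma adjusted p = 0.0148), Ormdl2 at -0.0113, Ugcg at -0.0134, Smpd4 at 0.18 (limma adjusted p = 0.0386), Smpdl3a at -0.23 (limma adjusted p = 0.0378) and S1pr2 at 0.11. With a term for the 2 sets Ormdl1 was at -0.00334 and Smpdl3a at -0.0535. With 1 library left out Sptlc1 ranged from -0.11 to 0.000948, Cers2 from -0.0841 to 0.00422, Smpd4 from -0.0758 to 0.00353 and Smpdl3a from -0.0678 to 0.0844. The cause was not tested.

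With the replicate block 5 members were higher and 9 lower, and 1918 genes were higher and 2820 lower. The calls of Kdsr, Degs1 and Asah1 ended under it (limma adjusted p = 0.0794, 0.135 and 0.0951). Deviations of libraries with the same number correlated at -0.47, 0.09 and -0.59. Trends on GC content ran in opposite directions in LPS+PA-BSA 1 and control 1, and in LPS+PA-BSA 3 and control 3. These correlations therefore cannot tell whether libraries with the same number were paired. Without a filter the same 3 calls ended, and Sptssb (log2 fold change 0.49), Acer2 (0.16) and Sphk1 (-0.26) did not pass.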
